A study of Mus musculus with 1 sample.

Results

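Ly6a, Ly6c1, Ly6c2, Ly6e and Ly6i were examined in 1 single-cell RNA library of subcutaneous MC38 tumors. These 5 of the 32285 genes in the deposited table were selected on their UMI levels across the cell classes of this same library, so the levels below are a description and carry no test. MC38 is a mouse colon carcinoma line that grows in immunocompetent C57BL/6J hosts. Cells of 5 control tumors in female mice, which the study's methods say were bought at 4 to 6 weeks of age, had been pooled before capture. The library is labelled WT, and its label names no shRNA, while the methods call the control tumors shNTC. A second pool, with Atp6v0a1 knocked down in the tumor cells, was not analysed here. Cells carry no mark of the tumor they came from, which leaves 1 sample without replicates. No p-value was therefore computed, and every 95% interval covers counting error only.

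The table held 106631000 UMIs, that is, distinct captured transcript molecules, in 5307 called cells. After filtering, 4443 cells remained, with between 511 and 231902 UMIs each. Levels are given as CPM, the UMIs of a gene per 1000000 UMIs of a class. Since the 3' chemistry counts each molecule once whatever the length of its transcript, no length correction was applied. Clusters were named from marker lists that hold no Ly6 gene, and the Ly6 genes were also kept out of the variable genes that formed the clusters. The 1819 tumor-like cells had Rhox5, a homeobox gene expressed by MC38 cells, at 695 CPM (39.5 CPM in macrophage-like cells). Their Xist level, which marks female host cells here, was 1.36 to 6.32 CPM in the 3 tumor-like classes and between 152 and 1220 CPM in the 11 host classes. The label also calls the cells epithelial, but the epithelial genes Krt8, Krt18 and Epcam were at or below 0.092 CPM in each tumor-like class, with Krt18 at 0, so the tumor-like cells were recognised by Rhox5 and Shisal2b and not by keratins. The classes held 522 Col3a1-high tumor-like cells, 325 cycling and 972 other Col3a1-low tumor-like cells, 146 monocyte-like cells, 1442 macrophage-like cells in 4 states, 54 Cd8 T cells, 57 fibroblast-like cells and 34 endothelial-like cells. The endothelial-like cells were shallow, with a median of 860 UMIs, but carried Pecam1 at 983 CPM and Cdh5 at 1005 CPM.

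Ly6 proteins are small surface proteins with a 3-finger fold, held in the outer membrane by a glycosylphosphatidylinositol (GPI) anchor. Ly6a encodes Sca-1, the antigen used to sort mouse hematopoietic stem cells, and it also marks regenerating, fetal-like intestinal epithelium. Ly6c1 and Ly6c2 encode the Ly6C antigens, which most antibodies do not tell apart and which separate inflammatory from patrolling monocytes and mark subsets of Cd8 T cells and endothelium. Ly6e is an interferon-induced member that alters the entry of several viruses, and Ly6i is a close relative with a narrower, mostly myeloid pattern. Several genes of the cluster respond to type I and type II interferon.

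All 5 genes lie within 156.92 kb of mouse chromosome 15 (GRCm38, GENCODE M21). Ly6e (ENSMUSG00000022587) occupies chr15:74955051-74959905 on the plus strand. The other 4 are on the minus strand, namely Ly6i (ENSMUSG00000022586) at chr15:74979534-74983430, Ly6a (ENSMUSG00000075602) at chr15:74994877-74998031, Ly6c1 (ENSMUSG00000079018) at chr15:75044018-75048830 and Ly6c2 (ENSMUSG00000022584) at chr15:75108158-75111970. Ly6c1 and Ly6c2 are near copies. Over the last 500 bases of their transcripts, where the 3' chemistry reads, 484 of 493 aligned bases matched (98.2%), against 87.2% to 89.1% among the other pairs of Ly6a, Ly6c1, Ly6c2 and Ly6i and 61.0% to 62.8% for pairs with Ly6e. Of 411 windows of 90 bases in the Ly6c1 end, 35 (8.52%) occurred unchanged in Ly6c2, and no window of another pair did. Reads from such windows cannot be assigned to either gene, so both levels are uncertain to that extent.

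Promoter sequence from RefSeq (GRCm38.p6) was at hand for 2 of the 5 genes, Ly6c1 and Ly6c2, and it is shown because this pair differed most in where it was expressed. Both run 5' to 3' on the minus strand, from 250 bases before to 50 bases after the start, at chr15:75048788-75049087 for Ly6c1 and chr15:75111922-75112221 for Ly6c2. Capitals mark the bases that did not match in the alignment of the pair, 92 in each.
Ly6c1: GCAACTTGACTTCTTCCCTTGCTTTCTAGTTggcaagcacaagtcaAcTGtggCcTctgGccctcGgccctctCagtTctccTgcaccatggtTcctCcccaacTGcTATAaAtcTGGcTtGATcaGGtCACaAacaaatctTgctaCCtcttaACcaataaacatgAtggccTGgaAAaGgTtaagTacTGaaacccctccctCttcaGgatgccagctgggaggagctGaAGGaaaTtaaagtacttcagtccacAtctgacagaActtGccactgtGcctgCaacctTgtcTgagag
Ly6c2: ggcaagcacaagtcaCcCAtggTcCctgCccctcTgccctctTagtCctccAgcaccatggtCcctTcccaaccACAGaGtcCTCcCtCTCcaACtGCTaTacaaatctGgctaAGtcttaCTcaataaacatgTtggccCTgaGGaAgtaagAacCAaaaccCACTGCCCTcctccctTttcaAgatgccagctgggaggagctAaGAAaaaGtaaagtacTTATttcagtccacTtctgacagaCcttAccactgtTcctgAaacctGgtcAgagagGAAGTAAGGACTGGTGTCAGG
The windows matched at 208 of 266 aligned bases (78.2%). Both strands were searched for motifs chosen by hand, of which 2 are given here. Neither window held GAAANNGAA, a core of the interferon-stimulated response element, which occurs in 8.57% of 27025 promoters of this length. GAGGAAGT, a PU.1-like motif found in 3.28% of them, occurred 2 times in the Ly6c2 window and 0 times in the Ly6c1 window, although the window of another listed Ly6c1 start (chr15:75048614-75048913) had 1 match. A match is a description of letters and does not show that a factor binds.

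Ly6a was highest in Cxcl9-high macrophage-like cells, at 2454 CPM (2365 to 2546). Fibroblast-like cells followed at 1824 CPM (1717 to 1937), and dendritic cell-like cells, whose interval overlapped theirs, at 1789 CPM. Col3a1-high tumor-like cells reached 1557 CPM (1535 to 1580), next to cycling macrophage-like cells at 1602 CPM and other T and NK cells at 1548 CPM, from which their interval was not separated. Monocyte-like cells and Cd8 T cells, at 1101 and 1084 CPM, also overlapped. The lower end held the other Col3a1-low tumor-like cells at 856 CPM, Arg1-high macrophage-like cells at 846 CPM and cycling Col3a1-low tumor-like cells at 672 CPM. Ly6a was thus present in tumor-like, stromal and most immune classes, and its level varied 3.65-fold over these 13 classes. The 42 granulocyte-like cells had 405 CPM (231 to 658) on 16 UMIs. Their Rhox5, a tumor gene, was at 40.1% of the tumor-like level on 11 UMIs. Free tumor RNA at that share would carry 368 CPM of Ly6a. The share was 11.7% for Shisal2b, on 1 UMI, 31.9% for Dcn and 64.2% for Col3a1. These shares set no single background level, and the part of free tumor RNA in the Ly6a level of this class was not tested. With the granulocyte-like cells included, Ly6a varied 6.06-fold.

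Ly6e was as widespread and varied less, over a 3.12-fold range in the same 13 classes. Its level was highest in Cxcl9-high macrophage-like cells at 2308 CPM (2221 to 2397), followed by monocyte-like cells at 1881 CPM (1788 to 1977). Cd8 T cells and fibroblast-like cells, at 740 CPM (653 to 835) and 745 CPM (677 to 818), had the lowest levels and did not differ beyond their intervals. Among tumor-like cells Ly6e stood at 1518 CPM in the Col3a1-high class and at 913 and 927 CPM in the other and cycling Col3a1-low classes. At least 1 Ly6e UMI was present in 97.5% of Col3a1-high tumor-like cells and in 98.7% of macrophage-like cells.

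**Figure D1:**
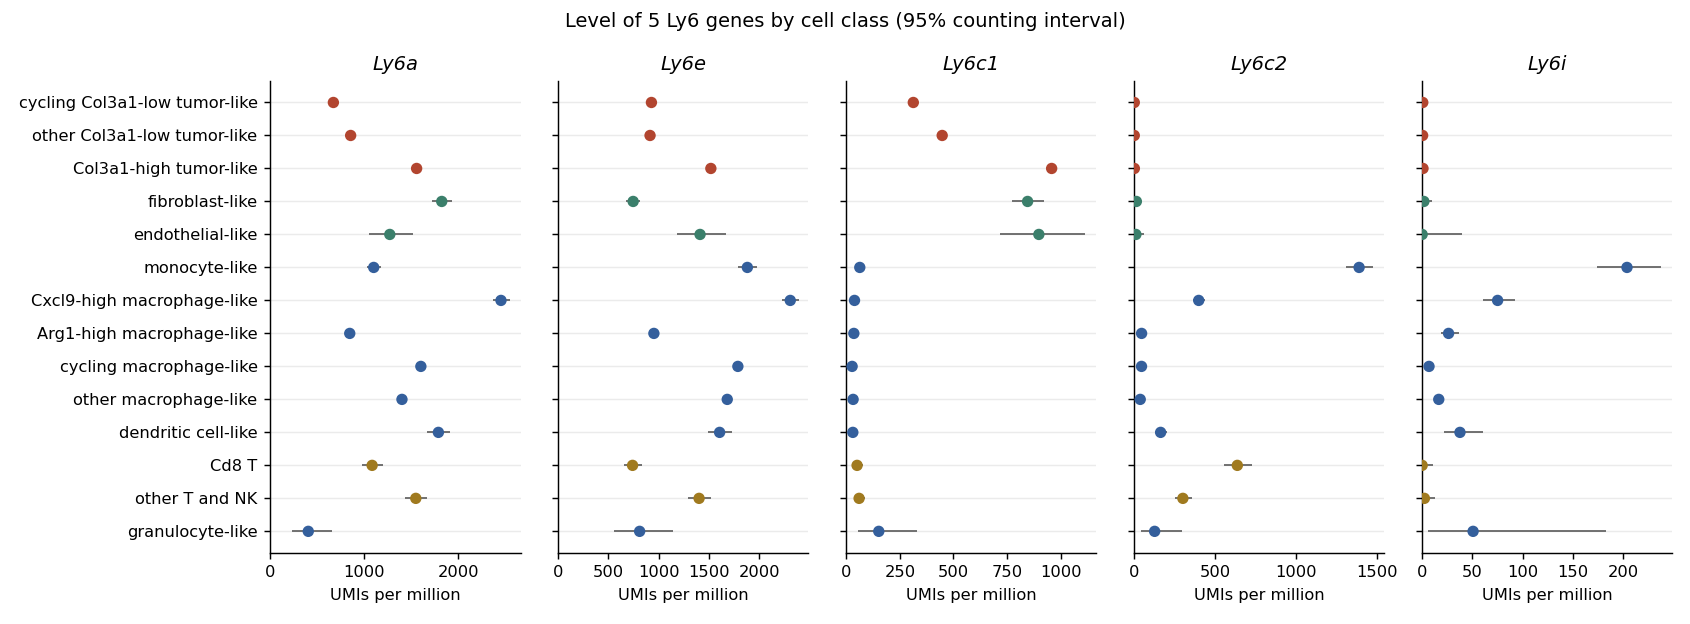
Each panel plots the level of 1 Ly6 gene (CPM, linear axes with separate ranges) in 14 cell classes, with horizontal bars for the 95% counting interval. Ly6a and Ly6e are at 672 CPM or more in every class but the granulocyte-like cells, where Ly6a is at 405 CPM. Ly6c1 is high in tumor-like, fibroblast-like and endothelial-like cells, and Ly6c2 and Ly6i are highest in monocyte-like cells.

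Ly6c1 and Ly6c2 occupied different cells. Ly6c1 was highest in Col3a1-high tumor-like cells at 957 CPM (940 to 975), endothelial-like cells at 898 CPM (716 to 1112) and fibroblast-like cells at 845 CPM (773 to 923), with overlapping intervals between neighbours in this order. Other and cycling Col3a1-low tumor-like cells had 447 and 313 CPM. In the immune classes other than the shallow granulocyte-like cells, Ly6c1 lay between 27.7 and 63.4 CPM. Ly6c2 was highest in monocyte-like cells at 1391 CPM (1311 to 1474), then in Cd8 T cells at 638 CPM (557 to 727), Cxcl9-high macrophage-like cells at 399 CPM (364 to 437) and other T and NK cells at 301 CPM (253 to 357), 4 levels whose intervals did not overlap. These intervals leave out the spread between cells. A Ly6c2 UMI was held by 33.3% of the Cxcl9-high cells and 7.41% of the other T and NK cells. The other 3 macrophage states had 37.5 to 45.9 CPM, and the 3 tumor-like classes 0.58 to 1.18 CPM. Of all Ly6c1 and Ly6c2 UMIs together, Ly6c2 made up 95.6% (94.3 to 96.7) in monocyte-like cells and 92.6% (88.6 to 95.6) in Cd8 T cells, but 0.146% (0.11 to 0.191) in tumor-like cells. The 54 Ly6c2 UMIs of tumor-like cells lay in 54 cells, 1 UMI each. Each of these cells also held Ly6c1, as did 88.1% of all tumor-like cells. Since the ends of these genes differ by few bases, part of these 54 UMIs may be misassigned Ly6c1 reads, which was not tested.

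**Figure D2:**
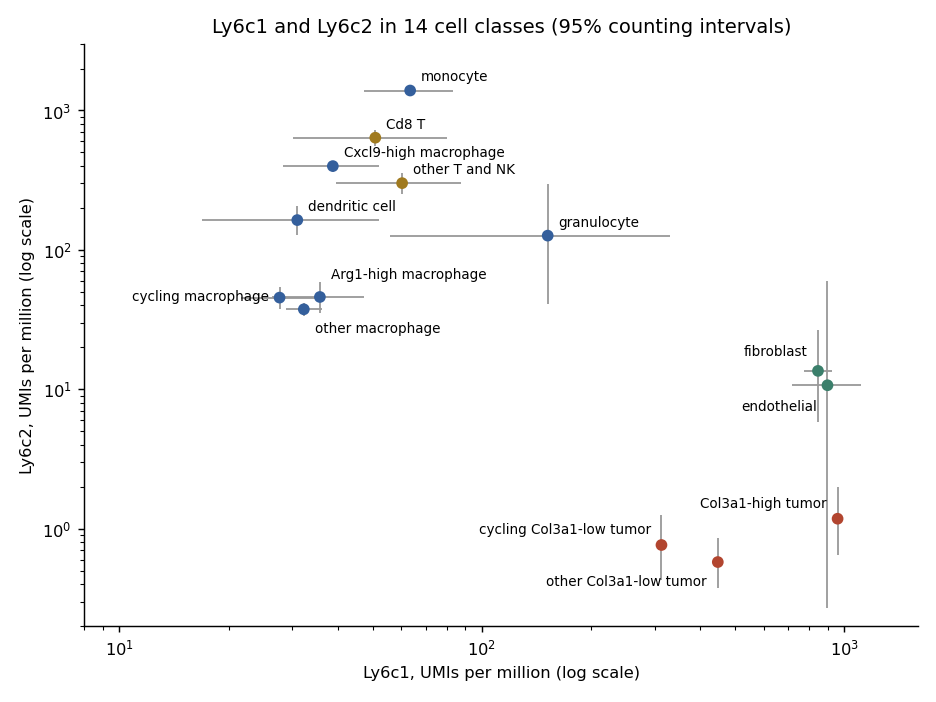
The level of Ly6c2 is plotted against that of Ly6c1 (CPM, both axes logarithmic) for 14 cell classes, with bars for 95% counting intervals. Tumor-like cells sit at the lower right, below 2 CPM of Ly6c2, and monocyte-like and Cd8 T cells at the upper left.

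RNA released from broken cells reaches every droplet, so the low values were read against genes of the source cells. In macrophage-like cells Ly6c1 stood at 6.55% (5.97 to 7.17) of its tumor-like level, while Rhox5 stood at 5.69% (5.23 to 6.17), the tumor gene Shisal2b at 6.56% and the small proteoglycan gene Dcn at 6.27%. In Cd8 T cells the shares were 10.3% (6.11 to 16.3) for Ly6c1 and 6.91% (4.03 to 11.1) for Rhox5. Ly6c1 in these classes is therefore read as background, and the 31.5% of Cd8 T cells and 26.8% of macrophage-like cells with a Ly6c1 UMI (median depths 5799 UMIs for Cd8 T cells and 7142 to 12580 UMIs in the macrophage states) are not read as expression. In endothelial-like cells Ly6c1 was at 182% (145 to 225) of the tumor-like level with Rhox5 at 4.62% (0.952 to 13.5), far above what free tumor RNA carries. In the other direction, Ly6c2 in tumor-like cells was at 0.518% (0.389 to 0.676) of its level in monocyte-like and macrophage-like cells, and the myeloid genes Lyz2, Tyrobp and C1qa were at 0.519%, 0.443% and 0.417%. Ly6i in tumor-like cells was at 1.86% (1.34 to 2.52), on 42 UMIs, which is above the shares of these 3 genes, and the source of these UMIs was not tested.

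Ly6c1 in fibroblast-like cells rested on few of them. Among the 57 cells, 6 cells held 401 of 499 Ly6c1 UMIs (80.4%), and 1 cell held 216. That cell had 32413 UMIs, Col3a1 at 18480 CPM, Ly6a at 10304 CPM, and single UMIs of Rhox5 and Xist. Without it the class stood at 507 CPM (450 to 570) of Ly6c1 and 1332 CPM (1238 to 1431) of Ly6a. The ratio of endothelial-like to fibroblast-like cells was 1.06 (0.833 to 1.34) for Ly6c1 with this cell and 1.77 (1.37 to 2.27) without it, so the order of these classes is not fixed by the data. The cell was singled out after its values had been seen. The class joined a Cthrc1-led cluster of 30 cells with a Rgs5-led, pericyte-like cluster of 27 cells. Ly6c1 was 9.23 times (6.48 to 13.6) and Ly6a 5.16 times (4.27 to 6.29) as high in the former, and without the single cell its Ly6c1 was still at 770 CPM and its Ly6a at 1916 CPM, against 141 and 519 CPM in the latter. Ly6e was at 1.12 times (0.921 to 1.37). The fibroblast-like cells also carried Rhox5 at 176 CPM, 25.4% of the tumor-like level, and the part of tumor RNA in their Ly6 levels was not tested.

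The next comparison set Col3a1-high against Col3a1-low tumor-like cells, that is, MC38 cells with more and less of the fibrillar collagen gene Col3a1 (3243 against 748 CPM). Shisal2b was at 98.4 CPM in Col3a1-high, 204 CPM in other and 316 CPM in cycling Col3a1-low cells. In the same order Rhox5 was at 663, 730 and 636 CPM and the host transcript Xist at 6.32, 1.36 and 1.37 CPM. The part of host RNA in the ratios below was not tested. Ly6c1 was 2.36 times (2.31 to 2.41), Ly6a 1.95 times (1.92 to 1.98) and Ly6e 1.65 times (1.63 to 1.68) as high in the Col3a1-high cells. Ly6c2 (14 against 40 UMIs) was at background in both, and Ly6i had 10 against 32 UMIs, a ratio of 1.66 (0.727 to 3.46) that counting error does not separate from 1. Of 12811 genes with at least 20 UMIs in these cells, 14.5% were at least 2-fold higher and 3.79% at least 2-fold lower in the Col3a1-high cells, with a median ratio of 1.22, and 1 of the 5 Ly6 genes, Ly6c1, passed this fold. The Ly6c1 ratio sums UMIs over cells and was not recomputed under other settings. In cells with at least 5000 UMIs, median Ly6c1 was 501 CPM in Col3a1-high and 277 CPM in Col3a1-low cells. The 53 Col3a1-high cells with the most Ly6c1 held 54.0% of its UMIs in that class. In a list of 36 interferon-response genes without a Ly6 member, 16 were 2-fold or more higher, 0 were lower and the median ratio was 1.79. Among these, the chemokine gene Cxcl9 was at 5.22 times, the guanylate-binding protein gene Gbp5 at 3.59 times and the antiviral gene Rsad2 at 3.27 times the Col3a1-low level. Of 4 interferon receptor genes 0 passed 2-fold, with ratios of 1.91 for Ifngr1, 1.87 for Ifnar1, 1.25 for Ifnar2 and 1.18 for Ifngr2. In the fetal-like epithelial list, in which Sca-1 is commonly counted, 1 of 10 measured genes passed 2-fold, Ccn1 at 4.12 times, with a list median of 1.02, and 0 of 4 measured crypt stem cell genes did. Of 8 genes that attach or remodel GPI anchors, 1 passed 2-fold, Pgap1, with 27 UMIs in the Col3a1-high class, and the median was 1.17.

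The Col3a1-high class held clusters that differed in their Ly6 levels. A cluster of 386 cells led by Ogn, the keratin gene Krt16 and Aspn had Ly6a at 1631 CPM, Ly6c1 at 1000 CPM and Ly6e at 1529 CPM. The other, of 136 cells with a median of 4584 UMIs and 8.09% mitochondrial UMIs, had Ly6a at 773 CPM, which was 0.968 times (0.902 to 1.04) the Col3a1-low level, Ly6c1 at 506 CPM and Ly6e at 1406 CPM. The difference in Ly6a thus came from the deeper cluster. Among Col3a1-low clusters, 34 cells led by Klk7 and Fmr1nb had Ly6a at 1699 CPM and Ly6e at 1777 CPM, both above the Col3a1-high class, and 196 cells led by H1fx and Cdc6 had the lowest values, 525 and 705 CPM. The cycling class was named from a list of mainly mitotic genes, and the latter cluster, although Cdc6, Rrm2 and Ung among its leading genes act in DNA replication and repair, had none of that list raised 2-fold and stayed among the other Col3a1-low cells. Cycling Col3a1-low cells had 0.785 times (0.770 to 0.801) the Ly6a and 0.699 times (0.679 to 0.720) the Ly6c1 level of the other ones, while Ly6e was at 1.02 times (0.997 to 1.03). Without the cluster of 196 cells, a setting added after these values were seen, the ratios were 0.674 (0.660 to 0.688) for Ly6a, 0.581 (0.564 to 0.599) for Ly6c1 and 0.925 (0.908 to 0.942) for Ly6e. Depth moved with the classes, with medians of 18690 UMIs in Col3a1-high, 44081 in other and 59334 in cycling Col3a1-low cells, as did the myeloid transcripts Lyz2 (57.9, 33.7 and 39.8 CPM) and C1qa (47.4, 26.9 and 29.8 CPM), and their part in the ratios was not tested. Fibroblast and pericyte markers moved with the classes too. Of 9 such genes, 6 were 2-fold or more higher in Col3a1-high than in Col3a1-low cells, and their summed level was 3914 against 1778 CPM, most of it from Dcn at 3189 and 1471 CPM. In fibroblast-like cells the sum was 22854 CPM, with Dcn lower, at 1889 CPM, Pdgfra about equal, at 79.6 against 80.8 CPM in Col3a1-high cells, and the other 7 higher, among them Col1a1 at 8358 against 257 CPM. The part of fibroblast RNA in the Ly6 ratios was not tested.

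To compare cells at equal depth, the tumor-like cells with at least 2000 UMIs were thinned to 2000 UMIs and ordered by their UMIs of the interferon list, and 3 groups of 585 cells were formed. Ly6a was at 544, 926 and 1479 CPM in the lower, middle and upper group, Ly6c1 at 299, 526 and 884 CPM and Ly6e at 738, 1021 and 1692 CPM. The upper group had 2.72 times (2.48 to 2.99) the Ly6a, 2.95 times (2.61 to 3.34) the Ly6c1 and 2.29 times (2.11 to 2.49) the Ly6e of the lower one. Of 7879 genes tested in the same way, 7.86% were 2-fold or more higher in the upper group, and 3 of the 5 Ly6 genes were, Ly6c2 and Ly6i having at most 3 UMIs in any group. Before thinning, the lower, middle and upper groups had median depths of 54725, 41998 and 27372 UMIs, and the part of this difference in the ratios was not tested. The upper group held more Col3a1-high cells, 52.1% against 10.8%, and fewer cycling ones, 13.7% against 20.2%. Its Rhox5 was at 1.17 times (1.06 to 1.29), Lyz2 at 1.26 times (0.89 to 1.79) and C1qa at 1.16 times (0.782 to 1.72) the lower group. Within each tumor-like class the order was the same, with Ly6a ratios of 2.79 (2.38 to 3.28) in Col3a1-high, 2.48 (2.19 to 2.82) in other and 2.31 in cycling Col3a1-low cells. The corresponding Ly6e ratios were 2.77, 1.80 and 1.71. From the lower to the upper group, median depth before thinning fell in cycling (76606 to 45573 UMIs) and other Col3a1-low cells (55613 to 36832). In Col3a1-high cells it was 16996, 23227 and 19128 UMIs in the lower, middle and upper group, with median mitochondrial shares of 6.45%, 4.25% and 3.83%. Within the deeper Col3a1-high cluster alone, median depth fell from 35411 over 25703 to 19120 UMIs. The part of depth and of mitochondrial share in these ratios was not tested.

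**Figure D3:**
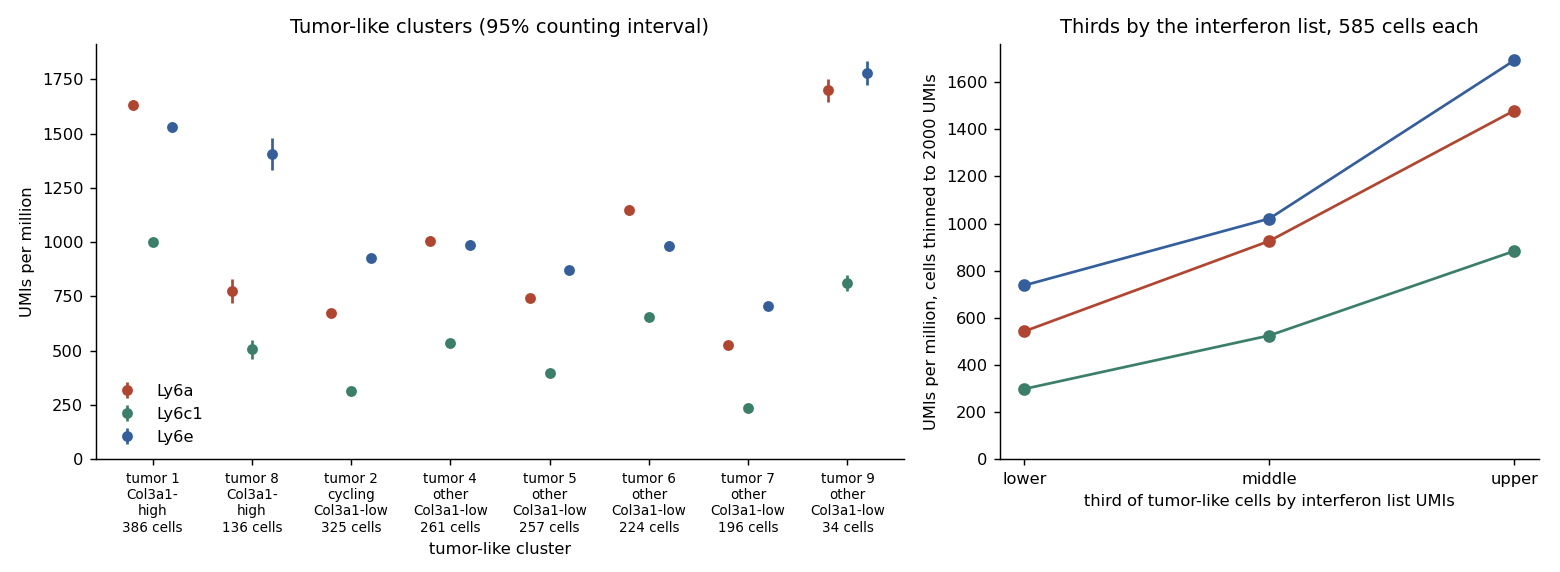
The left panel plots Ly6a, Ly6c1 and Ly6e (CPM, 95% counting bars) in 8 tumor-like clusters, and the right panel the same genes in the lower, middle and upper 585 tumor-like cells by interferon list UMIs after thinning to 2000 UMIs per cell. Cluster tumor 8 has Ly6a at 773 CPM against 1631 CPM in tumor 1, and all 3 genes are highest in the upper group.

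Within tumor-like cells the same cells tended to be high in 3 of the genes. In 1523 cells thinned to 10000 UMIs, the Spearman correlation across cells was 0.76 between Ly6a and Ly6c1, 0.56 between Ly6a and Ly6e and 0.41 between Ly6c1 and Ly6e. The values for Ly6a were 0.36 with B2m, 0.31 with Col3a1, 0.07 with Rhox5 and -0.05 with Actb. All cells come from 1 library at 1 depth and are not replicates, so these are descriptions.

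In myeloid cells the genes separated. Ly6c2 was 20.3 times (18.6 to 22.1) and Ly6i 10.0 times (8.23 to 12.1) as high in monocyte-like as in macrophage-like cells, whereas Ly6e was at 1.12 times (1.06 to 1.18) and Ly6a at 0.749 times (0.70 to 0.801). The Ly6c2 ratio ranged from 12.1 to 43.2 over the alternative filters and class definitions. Of 11212 genes, 4.21% were 2-fold or more higher and 14.9% lower in monocyte-like cells. Of 35 measured interferon-response genes, 1 was higher, the antiviral membrane gene Ifitm3 at 2.01 times, and 4 were lower, with a median ratio of 0.894 against 0.934 for all genes. Monocyte-like cells had the monocyte genes Plac8 and Ccr2 at 2748 and 344 CPM, and 79.5% of them (72.0 to 85.7) held a Ly6c2 UMI. The share was 14.2% in macrophage-like and 2.97% in tumor-like cells, the latter at median depths of 18690 UMIs or more against 4456 in monocyte-like cells.

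Cxcl9-high and Arg1-high macrophage-like cells, an interferon-response state and a state led by Mmp12, Mmp13 and Arg1, were the highest and the lowest of the 4 states for Ly6a and Ly6e. For Ly6c2 and Ly6i the Arg1-high cells came second, at 45.9 and 26.3 CPM. Ly6c2 was 8.69 times (6.67 to 11.5), Ly6a 2.90 times (2.71 to 3.11), Ly6i 2.86 times (1.92 to 4.34) and Ly6e 2.43 times (2.27 to 2.59) as high in the former, and Ly6c1, at background, 1.09 times (0.708 to 1.66). Of 7625 genes 15.3% were 2-fold or more higher and 5.84% lower, with a median ratio of 1.18, and 4 of the 5 Ly6 genes were higher. Of 35 measured interferon-response genes 27 were higher, with a median of 4.42, but this list shares genes with the one that named the Cxcl9-high cells, so that count was fixed in part by the naming. Cycling and other macrophage-like cells lay between the states for Ly6a, at 1602 and 1401 CPM, and for Ly6e, at 1787 and 1681 CPM. At equal depth of 2000 UMIs, the upper 467 macrophage-like cells by the interferon list had 2.09 times (1.93 to 2.26) the Ly6a and 1.70 times (1.59 to 1.83) the Ly6e of the lower 467. Their median depth before thinning was 8370 UMIs, against 10951 in the lower 467. In the other macrophage-like cells alone the Ly6a ratio was 1.73 (1.57 to 1.90).

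Ly6c2 and Ly6i in the Cxcl9-high class came from a minority of its cells. Of 156 cells 52 held a Ly6c2 UMI, and 16 cells held 347 of the 463 UMIs (74.9%). The 52 cells had Plac8 at 1415 CPM, Ccr2 at 197 CPM, Ly6i at 259 CPM (202 to 326) and the complement gene C1qa at 4765 CPM. The 104 cells without Ly6c2 had 72.6, 44.2, 17.0 (9.52 to 28.1) and 8353 CPM. Ly6a and Ly6e were high in both sets, at 2858 and 2711 CPM in the former and 2327 and 2181 CPM in the latter. Without the cells that held a Plac8 UMI, an alternative added after these values were seen, the ratio to Arg1-high cells fell to 1.10 (0.631 to 1.91) for Ly6i and was 2.81 (2.61 to 3.02) for Ly6a. With no limit on mitochondrial UMIs the Ly6i ratio was 0.680 (0.425 to 1.08). The data therefore fix no direction for Ly6i between these states, while Ly6a and Ly6e were higher in Cxcl9-high cells whether or not the cells held Ly6c2.

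**Figure D4:**
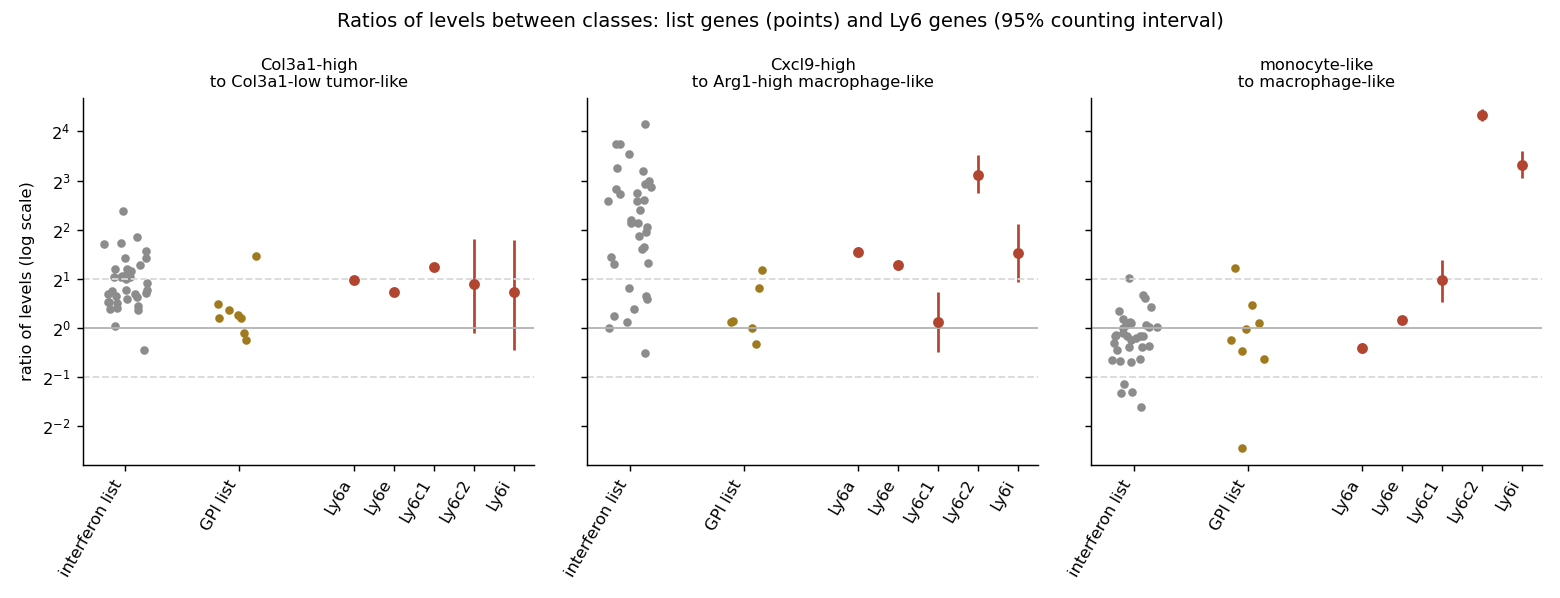
Ratios of levels (logarithmic axis) are plotted for 3 comparisons of classes, with grey points for single interferon-response genes, brown points for GPI-anchor genes and red points with 95% counting bars for the Ly6 genes, and dashed lines at 2-fold. Ly6a, Ly6e and 35 of 36 and 33 of 35 interferon genes lie above 1 in the first 2 panels, and Ly6c2 and Ly6i stand apart from the list in monocyte-like cells.

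In T cells Ly6c2 was the Ly6C gene that was detected. Of 54 Cd8 T cells 44.4% (30.9 to 58.6) held a Ly6c2 UMI, at a level of 638 CPM. In tumor-like cells 2.97% held one, at the background share given above. The measured ratio was 885 (655 to 1214) and lay between 289 and 953 under the alternatives. Its denominator is read as background, and 6 Cd8 T cells held 133 of the 226 UMIs of its numerator (58.8%). The size of the ratio is therefore not fixed by the data. Ly6i had 0 UMIs in Cd8 T cells, which allows a level of up to 8.47 CPM. Cd8 T cells with Ly6c2 (24 cells) had Plac8 at 809 CPM and Gzmb at 1506 CPM, against 211 and 1509 CPM in the 30 cells without it. By cluster, the 34 Cd8 T cells of the cluster led by granzyme genes had Ly6c2 at 741 CPM (641 to 853) and Ly6a at 1009 CPM (891 to 1138). The 15 Cd8 T cells of the cluster led by Ifng and Tnfrsf4 had Ly6c2 at 414 CPM (283 to 584) and Ly6a at 1448 CPM (1192 to 1743). In the latter cluster the 43 cells of the other T and NK class, of which 41.9% held a Foxp3 UMI, had the highest Ly6a of any T group, 3223 CPM (2952 to 3512), with Ly6e at 2035 CPM. Their 67 Ly6c2 UMIs came from 9.30% of the cells. Ifng, at 2159 CPM on 349 UMIs, was held by 9.30% of these 43 cells. Both cluster names describe the clusters as a whole. In Cd8 T cells alone, Gzmb was at 1292 CPM in the granzyme-led and 2263 CPM in the Ifng-led cluster. Gzmc was at 22.9 CPM in Cd8 T cells of the granzyme-led cluster and at 11389 CPM in its other T and NK cells. Ifng was at 283 and 1435 CPM in the Cd8 T cells of the 2 clusters, held by 55.9% and 53.3% of them. The interferon gamma gene itself, Ifng, had 551 UMIs in 48 cells of the whole library, 352 of them in the other T and NK class, and Ifnb1 had 18 UMIs.

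**Figure D5:**
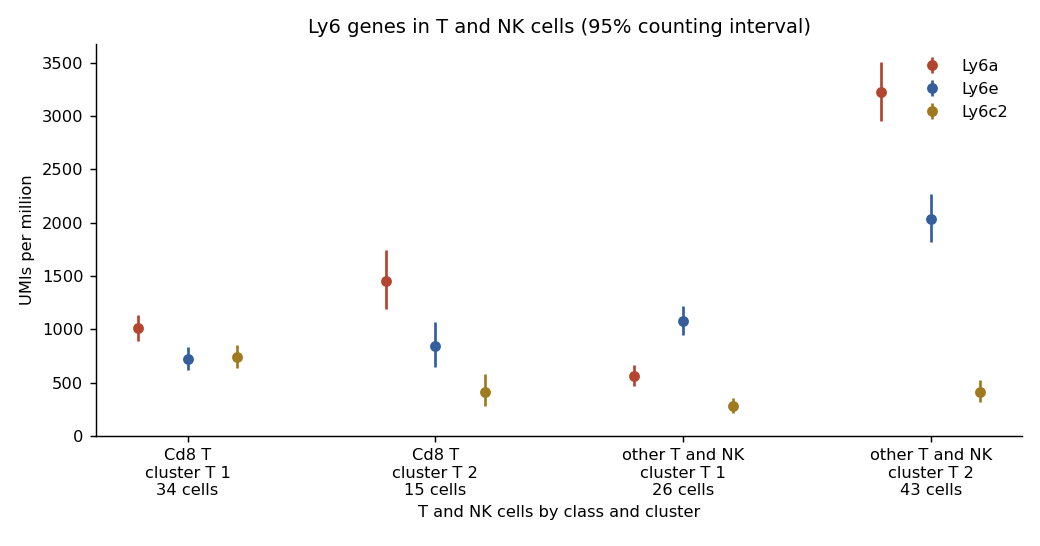
Levels of Ly6a, Ly6e and Ly6c2 (CPM, 95% counting bars) are plotted for Cd8 T cells and other T and NK cells of the granzyme-led cluster T 1 and the Ifng-led cluster T 2. These names describe whole clusters, and Gzmb in Cd8 T cells was higher in T 2. Ly6a is at 3223 CPM in the other T and NK cells of T 2 and at 561 CPM in those of T 1, and Ly6c2 is at 741 CPM in the Cd8 T cells of T 1.

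Among 36 other Ly6 and uPAR family genes, 35 were in the table, 11 of them with no UMI and 21 with fewer than 200. Above 100 CPM in any class were Plaur, the urokinase receptor, with 506 CPM in granulocyte-like and 293 CPM in monocyte-like cells, and Gpihbp1, which carries lipoprotein lipase across capillary endothelium, with 834 CPM in endothelial-like cells, where 78 of its 96 UMIs lay. Ly6g, whose product marks neutrophils in flow cytometry, had 1 UMI in all, and the 42 granulocyte-like cells had S100a9 at 25868 CPM.

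The genes with the most similar pattern over the 14 classes were listed among 10965 genes with at least 200 UMIs, by Pearson's r of log2(CPM + 1), as a description over classes that share a library and differ in depth. For Ly6c1 they were Cavin3 (r = 0.98), Serpinh1 (0.97) and Ddah2 (0.97), and for Ly6c2 Taf10 (0.93), Cd52 (0.92) and Ifi27l2a (0.92). Ly6a was nearest to AW011738 (0.92), Hivep2 (0.88) and Castor2 (0.88), Ly6e to Znfx1 (0.85), Usp8 (0.84) and Gm12185 (0.83), and Ly6i to Gm34084 (0.96), Rasgrp4 (0.93) and Cd300a (0.93). The 3 genes nearest to Ly6i were highest in the shallow granulocyte-like cells, at 177, 75.9 and 101 CPM, where Ly6i itself had 2 UMIs. Among the members, Ly6a and Ly6e had r = 0.61, Ly6c2 and Ly6i 0.62, and Ly6c1 and Ly6c2 -0.71.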

How the data were processed

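Cells of 5 pooled control tumors were captured on Chromium (Next GEM 3' kit, v3.1). The authors deposited raw UMI counts per gene and called cell. Cell Ranger 5.0.1 is named in the file header and CellRanger V3 in the methods, with GRCm38/mm10 as the build. FastQC and Seurat appear in the submitters' processing notes without versions. The counts were used as deposited, and no column of the authors' own comparisons was present.

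The 5 genes, the gene lists and the marker lists were chosen with earlier results of these data known. Cells under 200 genes or over 20% mitochondrial UMIs were dropped (667 in all), and the 197 cells with the highest simulated-doublet scores were removed. Counts scaled to 10000 per cell were log-transformed, and 2000 variable genes without Ly6 family members, 30 principal components and 20 neighbors entered Leiden clustering at a resolution of 0.5, with tumor, myeloid, T and remaining cells clustered again (1000 genes, 15 components, resolution 1.0). A cluster took a name when at least 3 marker genes were raised 2-fold or more and, for macrophage states, at least 50% of the list. Tumor clusters had Shisal2b and Rhox5 at 5 times the myeloid level or more, and Col3a1-high ones at least 2 times the Col3a1 of the other tumor clusters. Cd8 T cells held a Cd8a or Cd8b1 UMI and a Cd3 UMI but no Foxp3 UMI. The naming rule was revised after clusters had been seen. The second resolution, the granulocyte-like class, the rule that leaves clusters led by mitochondrial genes unnamed, the share of 50% and the marker gates of the cell-by-cell alternative were all set at that stage, the gates after a first form had placed many tumor cells among fibroblasts. The 685 cells of 6 clusters without a name, most of them shallow (median 1030 UMIs), entered no comparison.

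CPM is a sum of UMIs per 1000000 UMIs of the class, with exact Poisson intervals. Shares have exact Clopper-Pearson intervals and ratios exact conditional binomial ones, all at 95%. A count of 0 allows up to 3 counts. A gene needed 20 UMIs in both groups together to be counted at 2-fold. With 1 library no test between groups was possible. Named genes were the 5 members, the fixed lists and the 3 most similar genes per member. One gene of the interferon list and one promoter motif are not reported here by name. The 2-fold call and the ratio intervals were tested on simulated counts of pooled classes. Filtering, doublet scoring, clustering, naming and thinning were not tested in this way. Clustering used leidenalg 0.10.2 on igraph 0.11.9, intervals scipy 1.17.1, neighbors scikit-learn 1.9.0, tables pandas 2.3.3 and numpy 2.4.6, and plots matplotlib 3.10.9, all under Python 3.11.15.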

Additional observations from a re-analysis of the deposited data

How the results depend on the processing

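Of 115 ratios recomputed under other settings, 56 stayed within the counting interval of the reported value, 55 moved outside it on the same side of 1, and 4 moved outside it and crossed 1, that is, 1 of Ly6i and 3 of Ly6c1. The cause of each move was not tested. The ratio of Ly6a in Col3a1-high against Col3a1-low tumor-like cells (1.95) was 1.437 as a mean over cells, 1.423 with cells thinned to 1000 UMIs, 1.910 with at most 10% mitochondrial UMIs, 2.093 with at least 500 genes, 1.772 with family genes in the clustering, 1.911 at resolution 0.8, 1.827 with classes set cell by cell, 2.014 at subgroup resolution 0.5 and 2.043 without the shallow Col3a1-high cluster. The ratio of Ly6e in the same comparison (1.65) was 1.543 as a mean over cells, 1.494 with cells thinned to 1000 UMIs, 1.835 with at most 10% mitochondrial UMIs, 1.758 with at least 500 genes, 1.843 with doublets kept, 1.623 at resolution 0.8, 1.543 with classes set cell by cell and 1.692 at subgroup resolution 0.5. The ratio of Ly6c1 in endothelial-like against fibroblast-like cells (1.06) was 2.209 as a mean over cells, 0.6243 with at most 10% mitochondrial UMIs, 0.7820 with another seed and 0.6878 without the Rgs5-led cluster. The ratio of Ly6c2 in monocyte-like against macrophage-like cells (20.3) was 12.05 as a mean over cells, 12.06 with cells thinned to 1000 UMIs, 17.61 with at most 10% mitochondrial UMIs, 26.58 without a mitochondrial limit, 43.15 with at least 500 genes, 14.90 with doublets kept, 38.22 with more variable genes, 40.02 at resolution 0.8, 23.40 with classes set cell by cell and 34.84 without the Cxcl9-high class. The ratio of Ly6i in Cxcl9-high against Arg1-high macrophage-like cells (2.86) was 5.342 as a mean over cells, 4.883 with at most 10% mitochondrial UMIs, 0.6798 without a mitochondrial limit, 1.706 with family genes in the clustering, 1.539 with more variable genes, 1.345 at resolution 0.8, 5.531 at subgroup resolution 0.5 and 1.105 without cells holding a Plac8 UMI. The ratio of Ly6a in the same macrophage states (2.90) was 3.358 with cells thinned to 1000 UMIs, 2.672 with at most 10% mitochondrial UMIs, 2.059 without a mitochondrial limit, 2.698 with at least 500 genes, 2.570 with more variable genes, 2.258 with classes set cell by cell and 2.625 at subgroup resolution 0.5. The ratio of Ly6c2 in Cd8 T against tumor-like cells (885) was 517.4 as a mean over cells, 568.0 with cells thinned to 1000 UMIs, 375.5 with doublets kept, 604.4 with more variable genes and 288.9 with classes set cell by cell. The ratio of Ly6a in the upper against the lower tumor-like cells by the interferon list (2.72) was 3.073 with more variable genes, 2.472 without B2m, H2-K1 and H2-D1 in the list, 2.315 within cycling cells and 2.483 within other Col3a1-low cells. The ratio of Ly6e in the same groups (2.29) was 2.089 with at most 10% mitochondrial UMIs, 1.708 within cycling cells, 1.802 within other Col3a1-low cells and 2.768 within Col3a1-high cells. Genes past 2-fold numbered 2346 between Col3a1-high and Col3a1-low cells and 6783 with no minimum, 1608 between the macrophage states, 897 with a minimum of 50 UMIs and 5207 with none, and 2146 between monocyte-like and macrophage-like cells and 6566 with none, since lower minimums admit more genes. The alternatives on subgroup resolution, on left-out clusters, classes, cells or list genes and on single tumor-like classes were chosen after seeing the data. Without a mitochondrial limit no Col3a1-high or endothelial-like class formed, and with doublets kept no Cxcl9-high or dendritic cell-like class, so their ratios have no value there. Depth limits Ly6c2 and Ly6i most, at 2806 and 550 UMIs in all, and the endothelial-like cells, at a median of 860 UMIs. No paired analysis was possible because the series held 1 sample here, and for the same reason no replicate could be left out.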

Other observations

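Clusters left without a name also carried Ly6 transcripts, and the values below were picked after they had been seen. In 24 shallow cells (median 643 UMIs) led by the lung epithelial genes Scgb1a1 and Sftpc, Ly6e was at 1621 CPM and Ly6i at 540 CPM, the latter on 10 UMIs. In 12 cells led by the hemoglobin gene Hbb-bs, Ly6e was at 84.1 CPM (4 UMIs) and Ly6a at 21.0 CPM (1 UMI). A cluster of 129 myeloid cells with a median of 1454 UMIs had Ly6c1 at 369 CPM, against 32.3 CPM in the named macrophage-like cells. A cluster of 317 cells with a median of 792 UMIs, led by immunoglobulin genes, had Ly6a at 1261 CPM, Ly6c1 at 569 CPM and Ly6c2 at 56.7 CPM.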
